A study of Mus musculus with 2 samples.

Results

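The regions described here lie around 4 genes of progenitor signalling, Axin2, Notch1, Jag1 and Sox9. They were called from chromatin immunoprecipitation and sequencing (ChIP-seq) of mouse corneal epithelium with an antibody to the Myc tag of DN-Clim, a dominant-negative form of the cofactor Clim. A region belonged to a gene's window when its midpoint fell within fixed mm9 limits around that gene, whatever its score. The Axin2 window ran on chromosome 11 from 108680000 to 108910000 and the Sox9 window on chromosome 11 from 112300000 to 112800000. The Notch1 window ran on chromosome 2 from 26210000 to 26460000 and the Jag1 window on chromosome 2 from 136800000 to 137050000. The 4 windows together held 33 of the 25592 regions of sample 1 and 38 of the 42619 regions of sample 2. Merging overlapping regions gave 44 separate places, of which 27 were in both lists, 6 in sample 1 only and 11 in sample 2 only.

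The study has 1 group of 2 replicate immunoprecipitates from corneal epithelium at postnatal day 7. Both samples carry the K14 DN-Clim genotype, in which the keratin 14 promoter drives the transgene in basal epithelial cells. The antibody was directed at the tag of the transgene product and not at the animals' own Clim, and what it recovered was not tested. The epithelium was released with dispase before fixation. No input or untagged library was used here to check the regions, and whether the submitters called them against a control is unknown. The labels do not say whether the samples came from separate animals, so the spread between them may be technical.

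Axin2 is a scaffold protein of the complex that marks beta-catenin for destruction, and it is itself switched on by Wnt signalling, which makes it a common readout of the pathway. Notch1 is a receptor that is cut when it binds a ligand on a neighbouring cell, after which its intracellular part enters the nucleus, and Jag1 is a membrane-bound ligand of that receptor family. Sox9 is an HMG-box transcription factor found in progenitors of many epithelia, and it is known for regulatory elements far from the gene. Clim, also called Ldb, bridges LIM-domain transcription factors and does not bind DNA by itself. The windows are wider than the genes. By gene order in the GRCm38 RefSeq table, the protein-coding neighbours of Axin2 are Cep112 and Rgs9, those of Notch1 are Sec16a and Egfl7, those of Jag1 are Slx4ip and Btbd3, and those of Sox9 are Gm11677 and Slc39a11. A region in a window is therefore named by its position and not assigned to a gene. Promoters, exons and introns were not used here, because the gene table is of another build than the lists, and the sequence under the regions was not used for the same reason. The lists hold no expression values, so the labelled tissue was not checked against its marker genes.

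The Axin2 window was the most densely filled of the 4, with 13 regions in sample 1, 14 in sample 2 and 10 in both. The Sox9 window, with a length of 500 kb against 230 kb for Axin2, had 11 regions in sample 1, 13 in sample 2 and 9 in both. The Notch1 window had 4 regions in sample 1, all also in sample 2, and 6 in sample 2. The Jag1 window had 5 regions in each list and 4 in both. In the mirrored map of the windows, most regions of sample 1 had a counterpart in sample 2, with regions of a single list between them.

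**Figure D1:**
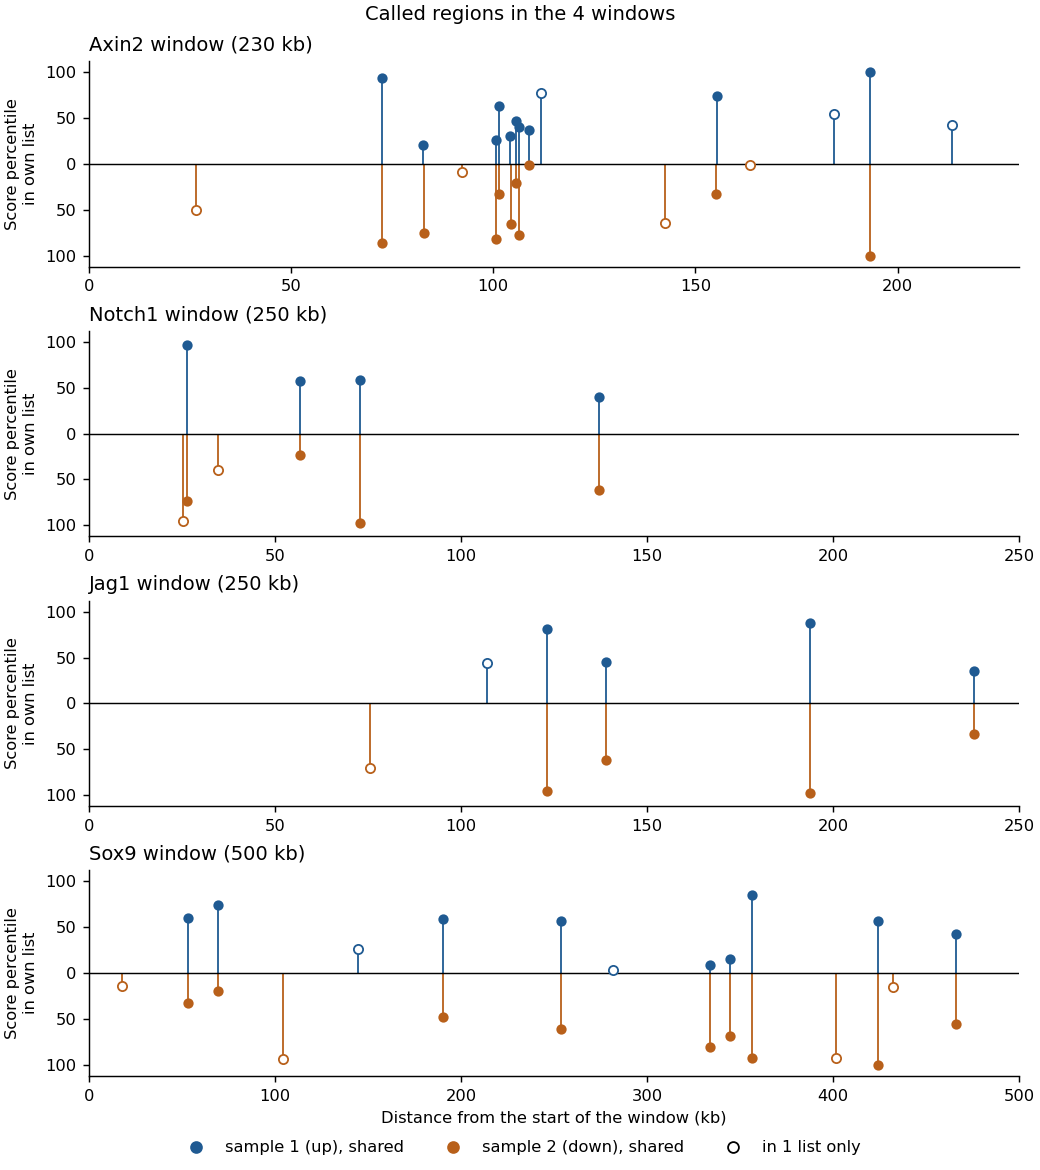
Regions of sample 1 (up) and sample 2 (down) in each of the 4 windows, by distance from the window's start in kb (x axis) and score percentile within the region's own list (y axis). Filled points are shared between the lists and open points are in 1 list only. In the Axin2 window 6 shared regions, each drawn for both samples, stand close together between 100.7 and 108.9 kb.

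Sharing was compared with that of the whole lists. In the windows, 81.8% of the sample 1 regions (27 of 33, exact Clopper-Pearson 95% interval 64.5 to 93.0%) were shared, that is, had 1 bp or more in common with a region of sample 2, against 80.4% over the whole sample 1 list. For sample 2 the share was 71.1% (27 of 38, interval 54.1 to 84.6%), against 48.4% over the whole sample 2 list. The sample 1 share therefore lay near the list's own value, and the whole-list value for sample 2 lay below the interval. With a limit on the scores the latter no longer held. In the higher-scoring 50% of both lists 9 of 23 sample 2 regions were shared (39.1%, interval 19.7 to 61.5%), against 35.0% of that part of the list. With sample 2 limited to scores from the lowest of sample 1, 19 of 26 were shared (73.1%, 52.2 to 88.4%), against 58.4%. That limit takes the scores of the lists to be on the same scale. With an overlap of at least 50% of both regions required, 22 of 38 were shared (57.9%, 40.8 to 73.7%), against 37.6%, which again lay below the interval. The interval covers counting error only and treats the regions as independent. The windows held 26.8 sample 1 regions per Mb, against 9.92 over chromosomes 1 to 19 and X, and the part of this in the sample 2 share was not tested.

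The density of shared regions was above the genome's in each window, by an amount whose interval left out 1 only for Axin2 and Sox9. The intervals treat regions as independent, whereas 6 of the 10 shared Axin2 regions lay within 8.29 kb. The other 4 stood at 18.0 per Mb. Chromosomes 1 to 19 and X held 7.98 shared regions per Mb. The Axin2 window held 43.5 per Mb, 5.45 times that density (exact 95% interval 2.61 to 10.0). The Sox9 window held 18.0 per Mb (2.26 times, 1.03 to 4.28). Against the density of chromosome 11 alone, the Axin2 window was 4.05 times as dense (1.95 to 7.43), and the Sox9 window 1.68 times, with an interval of 0.768 to 3.17 that includes 1. The Notch1 and Jag1 windows held 16.0 per Mb each (2.00 times, 0.546 to 5.13), which 4 regions do not separate from the genome's density. Of all tiles of the Axin2 window's length along these chromosomes, 0.401% held at least 10 shared regions, and the median tile held 1. At least as many shared regions as in the Notch1 or the Jag1 window were in 18.6% of tiles of their length, and at least as many as in the Sox9 window in 10.1%. These tile shares describe the genome and are no test, since shared regions gather in some parts of it.

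The stretch of 1 Mb on each side of a window gives the local background. The intervals here again treat regions as independent. These 2 Mb held 24 shared regions around Axin2, 28 around Sox9, 19 around Notch1 and 5 around Jag1. The Sox9 window was 1.29 times as dense as its surroundings (exact 95% interval 0.534 to 2.80) and the Notch1 window 1.68 times (0.417 to 5.07), so neither stood apart from them. The Axin2 window was 3.62 times as dense (1.55 to 7.86). The Jag1 window, with 4 shared regions in 250 kb and 5 in the 2 Mb around it, was 6.40 times as dense (1.27 to 29.7). Jag1 was thus the window with the sparsest surroundings, and its own count was the same as that of Notch1.

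**Figure D2:**
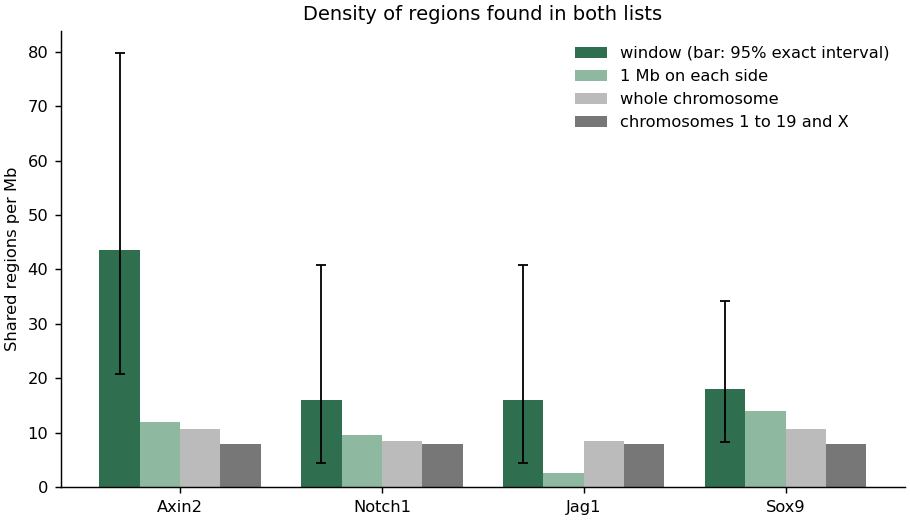
Shared regions per Mb (y axis, from 0) in each window, in the 1 Mb on each side of it, on its chromosome and on chromosomes 1 to 19 and X; the lines on the window bars are exact 95% intervals that treat regions as independent. The Axin2 bar stands at 43.5, the others at 16.0 to 18.0, and the Jag1 surroundings at 2.5 per Mb.

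At Axin2, the Wnt feedback gene, the count came mostly from a short run of regions. A total of 6 shared regions lay within 8.29 kb, from 108780670 to 108788964, which is 3.60% of the window. Going along the chromosome, the gaps between them were 548, 2771, 1282, 641 and 2370 bp. The nearest region before the run was 8370 bp away and in sample 2 only. The nearest after it was 2893 bp away, from 108791858 to 108791929, and in sample 1 only. The other 4 shared regions of the window were spread over the rest of it at 18.0 per Mb, the density of the Sox9 window.

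The run was singled out after its spacing had been seen, so its rank among other runs is a description. Shared regions were joined into runs wherever the gap was 5 kb or less, which gave 19084 runs, single regions included, on chromosomes 1 to 19 and X. The Axin2 run was the only one with 6 shared regions, and none had more, so that 0.00524% of runs reached its count. With gaps of 3 kb or less it was again the only run of 6. With gaps of 10 kb or less 5 runs held at least 6 shared regions and 1 held more. With gaps of 2 kb or less it broke up, and the largest piece held 3, a number that 34 runs reached. In the single lists it was long but not the longest: sample 1 had 7 regions in it and 2 longer runs elsewhere, and sample 2 had 6 in it and 7 longer runs elsewhere. The largest run of sample 1 on any of these chromosomes held 22 regions. The Axin2 run also depended on regions of low score. When both lists were limited to their higher-scoring 50%, no 2 shared regions of the window lay within 5 kb of each other, and with sample 2 limited to scores from 70.03 its largest part held 3 shared regions.

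The 6 regions of the run were narrow and of low to middle score in sample 1. Their sample 1 scores ran from 124.45 to 190.96 with a median of 148.51, between the percentiles 25.9 and 62.5 of that list. The score, given by the peak caller and deposited by the authors, is read within a list, as a percentile. The exception is the limit at 70.03, the lowest sample 1 score, which takes the scores of both lists to be on the same scale. In sample 2 the scores ran from 50.50 to 125.65 with a median of 82.545, between the percentiles 1.23 and 82.3. The run was thus spread over most of the sample 2 list by percentile, and no region of it reached the upper 10% of either list.

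Within the run, the region from 108780670 to 108780740 scored 124.45 in sample 1 and 125.65 in sample 2, and its end was the same base in both lists. The region from 108786395 to 108786466 scored 151.37 and 116.77, with starts 1 bp apart. These were the only members of the run that were narrow in both lists, where narrow means under 105 bp in sample 1 and under 100 bp in sample 2. The region from 108781289 to 108781415 had the run's highest sample 1 score, 190.96, and 66.83 in sample 2. The region from 108784187 to 108784325 scored 133.82 and 98.26. The other two, chosen because they belong to the run, had low sample 2 scores. The region from 108785608 to 108785753 scored 161.47 in sample 1 and 59.46 in sample 2. The region from 108788837 to 108788964 scored 145.65 and 50.50, the latter at percentile 1.23 of its list. Of the run's 6 regions, 3 had a sample 2 score at or above 70.03, the lowest score that the sample 1 list holds.

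**Figure D3:**
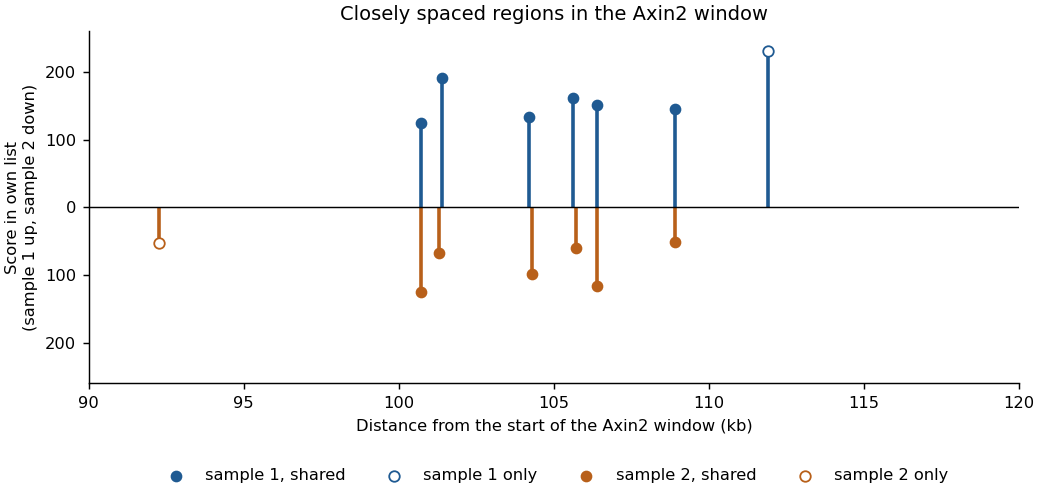
Scores of the regions in and around the run, by distance from the start of the Axin2 window (x axis, kb), with sample 1 drawn upward and sample 2 downward (y axis, score in the region's own list). The 6 shared regions score 124.45 to 190.96 in sample 1 and 50.50 to 125.65 in sample 2, and an open point marks a region in 1 list only.

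The remaining shared regions of the Axin2 window included its extreme. The region from 108872943 to 108873394, 452 bp wide after merging, scored 2297.98 in sample 1 and 1185.29 in sample 2, the rank of 4 in each list. It was wide in both lists, with widths of 446 and 437 bp, and its edges differed by 6 and 15 bp. Every other region of the 4 windows was at most 310 bp wide. Whether this region lies in repeated sequence was not tested, so its score cannot be read as occupancy. It lay 84.0 kb beyond the run.

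The next strongest Axin2 region, from 108752304 to 108752495, scored 333.87 in sample 1 (percentile 93.9) and 137.06 in sample 2 (percentile 86.8). It was high in both lists. The region from 108835171 to 108835310 scored 221.73 and 66.83, at percentiles 74.1 and 32.6, and was thus higher placed in sample 1. The region from 108762638 to 108762818 scored 111.52 and 112.65, at percentiles 20.2 and 75.5, and was higher placed in sample 2. It was also the only one of the 27 pairs that was wide in sample 1 and narrow in sample 2. Of the regions in 1 list only, the highest in sample 1 was the one just after the run, with 230.73 (percentile 77.0). The highest in sample 2 lay from 108822408 to 108822475, with 97.23 (percentile 64.6). The other 2 sample 1 regions without a partner scored 172.77 and 154.78, and the other 3 of sample 2 scored between 50.50 and 81.98.

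At Notch1, the receptor gene, the last region lay 137.1 kb from the window's start, and the 113.0 kb after it held none in either list. The region from 26236430 to 26236541 scored 368.73 in sample 1 (percentile 96.1) and 110.05 in sample 2 (percentile 74.0). The region from 26282904 to 26282980 scored 181.98 (percentile 58.2) and 202.97 (percentile 97.4). The lists thus placed a different region highest, each within the upper 5% of its own list. The region from 26346998 to 26347196 scored 151.23 and 94.60, at percentiles 39.9 and 62.0, and ended at the same base in both. The region from 26266717 to 26266821 scored 180.92 and 60.83, at percentiles 57.5 and 23.2. All 4 Notch1 pairs had a start or an end within 2 bp between the lists, against 40.8% of all overlapping pairs of the lists. This limit just takes in the pairs at 26236430 and 26266717, whose starts were 2 bp apart. With 4 pairs the share has little weight.

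The sample 2 list had 2 further Notch1 regions. One, from 26235182 to 26235240, lay 1191 bp before the strongest sample 1 region of the window and was placed high in its list, with 174.53 (percentile 94.8). The other, from 26244710 to 26244904, scored 73.00 (percentile 40.1). Both scored above the lowest sample 1 score, a reading that takes the scores of the lists to be on the same scale.

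At Jag1, the ligand gene, the shared regions were narrow in both lists without exception. This was so for all 4 pairs, against 36.4% of all overlapping pairs of the lists. The region from 136993705 to 136993784 scored 282.86 in sample 1 (percentile 88.1) and 218.50 in sample 2 (percentile 98.1). The region from 136923065 to 136923146 scored 247.46 (percentile 81.5) and 183.49 (percentile 95.8). These regions were the first and the second of the window in both lists, so the order of the scores was kept at the top. The region from 136939050 to 136939126 scored 158.19 and 93.42, at percentiles 45.0 and 61.3. The region from 137037746 to 137037846 was the lowest in both, with 142.91 and 67.12. Jag1 was the window in which the lists ordered all shared regions alike. With 4 regions that order has little weight.

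The Jag1 shared regions stood far apart, with gaps of 15.9, 54.6 and 44.0 kb. The sample 1 region without a partner, from 136907029 to 136907099, scored 156.26 (percentile 43.9) and lay 16.0 kb before the next shared one. The sample 2 region without a partner, from 136875458 to 136875617, scored 105.20 (percentile 70.7). The first 75.5 kb of the window held no region.

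At Sox9, the regions were spread along the whole 500 kb, from 18.11 to 466.0 kb from the window's start, and the longest stretch without one was 63.5 kb. The region from 112656251 to 112656443 was placed high in both lists, with 264.29 in sample 1 (percentile 85.0) and 157.75 in sample 2 (percentile 92.2). The region from 112723863 to 112724172 scored 180.59 in sample 1 (percentile 57.3) and 306.83 in sample 2 (percentile 99.6, the rank of 172). It was the widest Sox9 region, with 310 and 279 bp. The sample 1 list placed it in the middle, while in sample 2 it was the highest of the window.

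Around the first of these, 3 shared regions lay within 22.5 kb. The region from 112633957 to 112634147 scored 87.58 in sample 1 (percentile 9.24) and 121.46 in sample 2 (percentile 80.6). The region from 112644369 to 112644584, named because it completes this group, scored 100.92 (percentile 15.8) and 102.59 (percentile 68.8). Both were wide in both lists and were placed low in sample 1 and above the middle in sample 2. The third was the region at 112656251 described above, which was narrow in sample 1 and wide in sample 2. Of the 15875 runs at gaps of 20 kb or less, 897 held at least 3 shared regions and 263 held more than 3.

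The other 5 shared Sox9 regions lay between percentiles 43.1 and 74.1 of sample 1. The region from 112369479 to 112369615 scored 221.73 in sample 1 and 58.65 in sample 2, at percentiles 74.1 and 19.9. The region from 112353459 to 112353611 scored 186.34 and 66.83, at percentiles 60.3 and 32.6. Both were thus higher placed in sample 1. The region from 112490310 to 112490447 scored 183.99 and 80.09, at percentiles 59.2 and 48.3. The region from 112553982 to 112554057 scored 180.02 and 93.42, at percentiles 57.3 and 61.3, and was the only Sox9 pair narrow in both lists. The region from 112765908 to 112766038 scored 155.95 and 86.03, at percentiles 43.1 and 55.2.

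Some Sox9 regions in sample 2 only were strong in that list. The region from 112404328 to 112404396 scored 164.38 (percentile 93.4) and lay 34.7 kb from the nearest sample 1 region. The region from 112701393 to 112701527 scored 156.90 (percentile 92.2). It was named after its score had been seen. The other 2 scored 56.31 and 56.52, both under the lowest sample 1 score if the lists are on the same scale. In sample 1, the highest region without a partner lay from 112444546 to 112444630, with 123.99 (percentile 25.8), and the other scored 76.96 (percentile 3.30). The 2 sample 1 regions without a partner were thus low in their list at Sox9, whereas the 4 of sample 2 lay at both ends. These counts are too small to compare the lists.

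Across the 4 windows, the shapes of the regions, shared or not, differed between the lists. Narrow regions made up 26 of the 33 members of sample 1, against 62.7% of that list, and 14 of the 38 of sample 2, against 47.5%. A change from narrow in sample 1 to wide in sample 2 was found in 13 of the 27 pairs, against 27.2% of all overlapping pairs. A further 8 were narrow in both (36.4% of all pairs), 5 wide in both (23.4%) and 1 wide in sample 1 only (13.1%). The Sox9 pairs were wider in sample 2 in 7 of 9 cases, the Axin2 pairs in 6 of 10, the Notch1 pairs in 2 of 4 and the Jag1 pairs in 1 of 4. Over all overlapping pairs, 41.2% were wider in sample 2. The Jag1 and Sox9 windows thus lay on either side of the lists as a whole, with counts too small to compare. The overlap within a pair ran from 56 to 431 bp with a median of 71 bp. Of the 27 pairs, 22 overlapped by at least 50% of both regions.

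**Figure D4:**
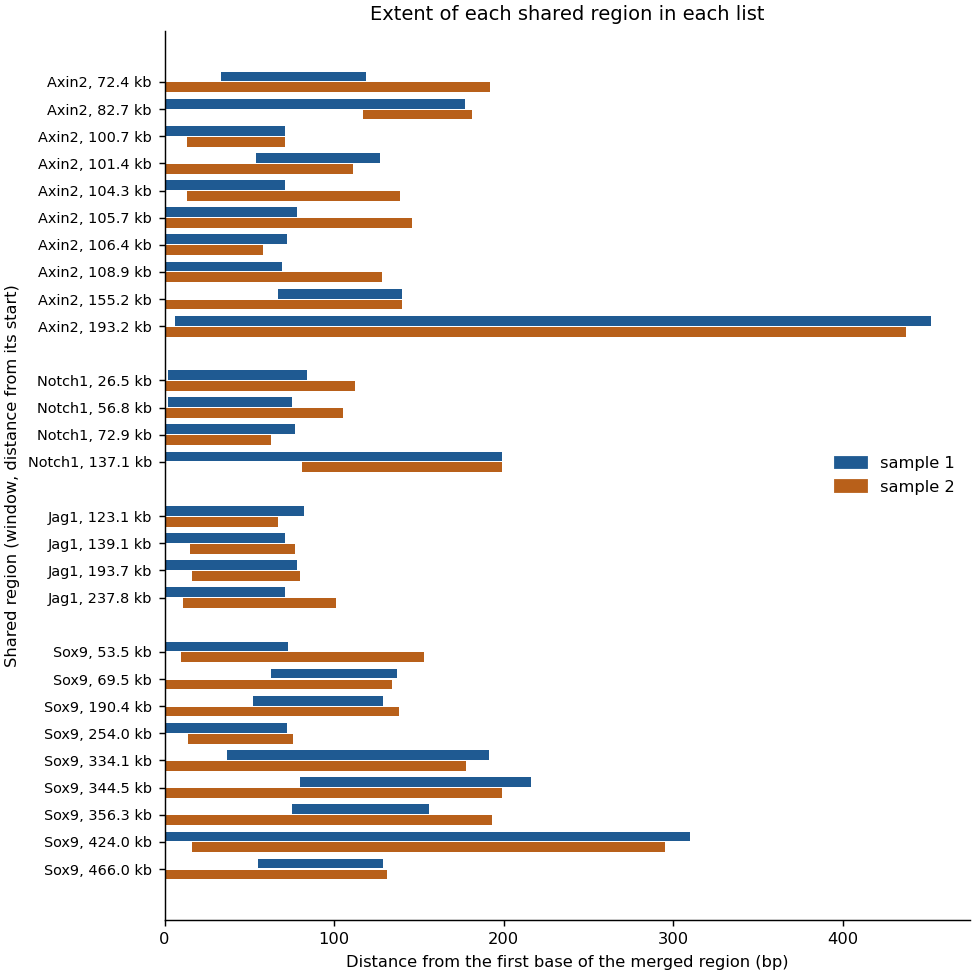
Extent in bp of each of the 27 shared regions in sample 1 and in sample 2, drawn from the first base of the merged region (x axis); the rows are named by window and distance from its start. The Jag1 bars are short in both lists, most Sox9 bars are longer in sample 2, and the Axin2 region at 193.2 kb spans 452 bp.

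The edges fell close together in part of the pairs. The end was at the same base in 3 of 27 pairs, against 7.56% of all overlapping pairs, and the start in 0 of 27, against 7.81%. A start or an end within 2 bp was seen in 12 of the 27 pairs, close to the 40.8% of all pairs. By window these were 5 of 10 Axin2 pairs, all 4 Notch1 pairs, 2 of 4 Jag1 pairs and 1 of 9 Sox9 pairs.

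By median percentile, the scores of the windows' regions were near the middle of the list in sample 1 and above it in sample 2. No interval was computed for these values, so the difference is a description only. The median percentile was 53.9 in sample 1 and 63.3 in sample 2. Of the sample 1 regions 17 of 33 scored above the list's median, a share near the 49.9% of the whole list, and of the sample 2 regions 23 of 38, against 50.0%. In the upper 10% of its list by score were 3 of 33 sample 1 regions, against 10.0%, and 9 of 38 sample 2 regions, against 10.0%. The sample 2 regions among them were spread over all 4 windows. Regions below the lowest sample 1 score of 70.03 made up 12 of the 38 sample 2 regions, against 36.8% of that list. Of these 12 regions, 8 were shared. Over the whole sample 2 list 48.4% of regions were shared, and 58.4% of those at or above 70.03. The whole-list share below 70.03 was not computed, so the 8 of 12 has no like value beside it. The limit at 70.03 takes the scores of the lists to be on the same scale.

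The order of the 27 shared regions by score differed between the lists. Spearman's rho of the scores was 0.196 over the 27 pairs and 0.0989 without the strongest Axin2 region. Over the 8 pairs narrow in both lists, of which 4 lay at Jag1, it was 0.659, and over the other 19 pairs 0.127. This is a description across regions, which share their libraries and in part their neighbourhood. The percentile was higher in sample 1 for 11 of the 27 pairs, against 41.1% of all overlapping pairs. In the plot of percentiles, the regions placed high in both lists were the Axin2 regions at 108872943 and 108752304, the Jag1 regions at 136993705 and 136923065 and the Sox9 region at 112656251.

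**Figure D5:**
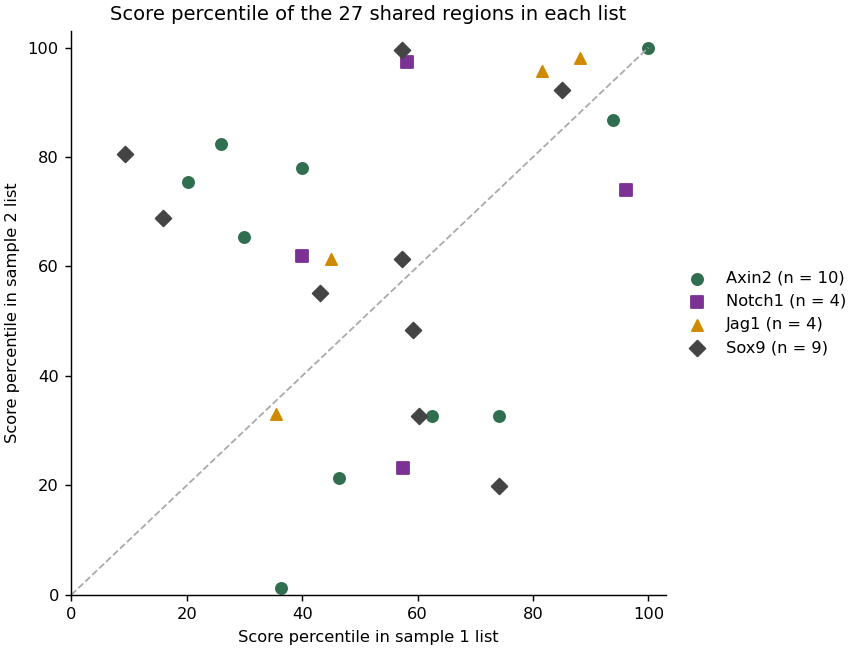
Score percentile of each of the 27 shared regions in the sample 1 list (x axis) and in the sample 2 list (y axis), by window; the dashed line marks equal percentiles. The points scatter widely around the line, with 11 below it, and 5 stand above percentile 80 in both lists.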

How the data were processed

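Each of the 2 samples came as a list of called regions. Per the labels' protocols, 24 µg of chromatin was used per immunoprecipitation, the libraries were sequenced as 50-cycle single-end reads on 2 lanes, and the lanes were combined per replicate after alignment. The submitters' processing notes name Bowtie 0.12.7, bedtools 2.11.2 and mm9. The region names carry the prefix of MACS. Its version, limits and any control were not given in the sources used here. A score per region, deposited by the authors, comes from the peak caller on a scale that is not stated, so it was ranked within a list. The lists give neither reads nor totals, so depth is unknown and no count test was run. Narrow regions can hold few distinct reads, and amplification before size selection can add to them. Whether this applies to the regions here was not tested.

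Windows were read from fixed mm9 limits, and a region was a member by its midpoint. Regions were shared at an overlap of at least 1 bp. Percentiles are the share of a list's regions with an equal or lower score. Narrow and wide were separated per list at the least filled 5-bp bin of the widths, searched only in a fixed stretch around 100 bp. Intervals are exact 95% intervals. The code ran in Python 3.11.15 with numpy 2.4.6, pandas 2.3.3, scipy 1.17.1 and matplotlib 3.10.9. Its overlap step was tested on simulated lists with planted overlaps, and its other steps were not tested in this way. The members and lists were chosen with earlier results of these data known. Shared regions were named one by one up to 8 per window, by mean percentile, and with them the highest region in 1 list only per window and list. Any further region was picked with its values in view. Alternatives were other overlap, score and window limits and each list alone. Gene position and the planned Wnt and Notch gene lists were not run, since no mm9 annotation was used here.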

Additional observations from a re-analysis of the deposited data

How the results depend on the processing

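Of 85 values recomputed under another setting, 71 stayed within 1.5 times the reported count, or within the reported interval for shares and densities. The rest mostly fell because fewer regions were kept. With the upper 50% of each list by score, 2 shared regions were left at Axin2, 2 at Notch1, 2 at Jag1 and 3 at Sox9, and 11 regions in either list at Axin2. The shares of regions shared were then 52.9% in sample 1 and 39.1% in sample 2, against 58.1% and 35.0% of the whole lists under that limit. No 2 shared regions of the Axin2 window then lay within 5 kb of each other, so its largest run was of 1. With sample 2 kept only at or above the lowest sample 1 score, which takes the scores to be on the same scale, Axin2 kept 6 shared regions, the run's largest part held 3, and 57.6% of the sample 1 regions were shared, against 61.4% of that list. With gaps of 2 kb or less the run held 3. At Notch1, widening the window by 50 kb on each side gave 10 regions in either list, and narrowing it by 50 kb gave 3. Each list alone gave 13 to 14 regions at Axin2, 4 to 6 at Notch1, 5 at Jag1, 11 to 13 at Sox9 and 6 to 7 in the run. The run and its alternatives were chosen after seeing the data. No paired analysis was possible because the samples form a single group. Depth is unknown, so a region that the other sample lacked and one that was missed there cannot be told apart.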
